A study of Rattus norvegicus with 8 samples.

Results

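Interleukin-6 (IL-6) belongs to a family of cytokines that signal through a shared receptor chain, gp130. The ligand first meets a receptor of its own or gp130 directly, gp130 then activates Janus kinases, and these phosphorylate the transcription factor STAT3. STAT3 switches on Socs3, whose product blocks the receptor and so closes a feedback loop. Contracting skeletal muscle is known to transcribe Il6 and to release the protein into blood. Related loops use other STAT proteins, and Cish, a relative of Socs3, is a classical target of STAT5.

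The genes described here are 10 members of this pathway, namely the ligands Il6, Lif, Osm and Il15, the receptor chains Il6r, Il6st and Osmr, the transcription factor Stat3, and the feedback inhibitors Socs3 and Cish. Il15 does not signal through gp130 and stands here as a further muscle-derived cytokine. Probe sets were taken where the platform annotation gives one of these symbols alone. This found 9 of the 10 genes, among 14217 genes named in this way, with 14 of 31042 non-control probe sets. Il6st had 4, Stat3 and Cish had 2 each, and the other 6 genes had 1 each. Osmr had none under that rule and is not measured here. The genes were chosen with their difference between the meals already known, so those differences are given as a description and carry no test.

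The epitrochlearis, a small fast muscle of the rat forelimb, was taken from 8 male Sprague-Dawley rats aged 6 weeks, with 1 Affymetrix array per rat. Every rat had practised swimming for 3 days and had received only 5 g of feed on the eve of the test, and then swam for 2 h. Directly afterwards each received a gavage of 44 kJ, about 15% of its daily energy need. In the AAM group (n = 4) the carbohydrate came with an amino acid mixture, and in the WPH group (n = 4) with whey protein hydrolysate, whey protein pre-digested into peptides. No group without swimming or without a meal is included, so every value below describes exercised and fed muscle. The labels do not state how long after the gavage the muscle was sampled. Rats swam 4 to a barrel, and which rats shared a barrel is not stated, so a barrel effect cannot be told apart from that of the meal if each barrel held 1 meal.

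The deposited values lie on a log2-like scale, on which rats differ by very little. Across the 8 rats, the median SD of all probe sets was 3.69e-06, and 23 probe sets range over more than 0.1. A deposited difference is therefore not a fold change, and differences are also given in units of the pooled SD within meals (the standardized difference, WPH minus AAM). No gene was called different between the meals: limma with Benjamini-Hochberg adjustment passed 0 of the 14 member probe sets and 0 of all 31042 (0%). The unadjusted limma p was below 0.05 for 1110 of the 31042, a smaller share than the 0.05 that passes on average with no difference. Muscle identity was clear, since the 14 measured markers of the skeletal muscle fibre, such as Ckm and Acta1, had a median level at the 99.9th percentile of the array. Some arrays stood further out than others. AAM replicate 3 was the highest or lowest of the 8 for 33.2% of probe sets, AAM replicate 1 for 29.7% and WPH replicate 4 for 27.2%, and the other 5 arrays for 19.8% to 25.6%.

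The members covered most of the range of levels on the array. The receptor chains, Stat3 and Il15 had levels in the upper part of the array, while Il6, Lif, Osm, Socs3 and the dimmer probe set of Cish lay below the array's median probe set. Level ranks are given as the percentile of the mean over the 8 arrays among all probe sets. Because probes differ in how brightly they bind, a rank shows where a probe set sits on the array and does not compare the amounts of transcripts. The signal-transducing chain gp130, encoded by Il6st, gave percentiles of 95.5, 94.99, 86.1 and 65.8 for its 4 probe sets. Il15 was at 90.8, Il6r, the IL-6 binding chain, at 87.4, and Stat3 at 89.4 and 79.4. Cish was at 55.6 and 28.3. Socs3 and Osm were at 40.9 and 40.4, Lif at 20.4 and Il6 at 4.82.

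The spread between rats within a meal was wide for most of the bright members and narrow for Lif, Osm and Socs3, and Il6 and Cish were dimmer members with a wide spread. Cish, by its brighter probe set, had a pooled SD within meals at the 99.8th percentile of all probe sets, and its dimmer probe set was at 89.2. Il6 was at 87.9 although it was among the dimmest 5% of probe sets. Il15 (97.5) and the 3 brighter probe sets of Il6st (97.1, 97.3 and 91.8) were above the 90th percentile too. Lif, Socs3 and Osm were at 14.1, 15.1 and 33.6, so their deposited values differ between rats by a few millionths only.

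**Figure D1:**
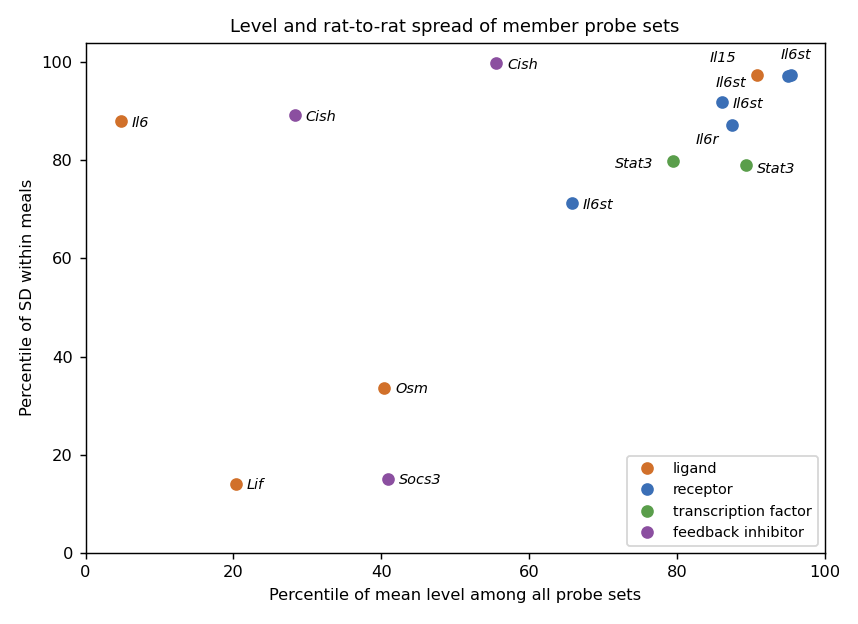
Each point is 1 of the 14 member probe sets, placed by the percentile of its mean level (x axis) and of its pooled SD within meals (y axis) among 31042 probe sets, and coloured by role. The receptors, Stat3 and Il15 sit to the right, Il6 combines a level at 4.82 with a spread at 87.9, and Lif and Socs3 sit low on both axes.

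Among the ligands, Il6 was higher in each WPH rat than in any AAM rat. Its probe set had a level at percentile 4.82 of the array, and detection above background was not tested. Its deposited values were 5.845989, 5.845922, 5.845991 and 5.845999 in AAM replicates 1 to 4, and 5.846167, 5.846066, 5.846067 and 5.846173 in WPH replicates 1 to 4. The 4 WPH rats all lay above the 4 AAM rats, in 2 tiers, with replicates 1 and 4 above replicates 2 and 3. AAM replicate 2 was the lowest rat and stood apart from the other 3 of its meal. The mean difference was 1.43e-04 ± 3.49e-05 (SE, n = 4 per group), or 2.90 SD, which was larger than 99.5% of all probe sets by size. The standardized difference was 2.65 to 3.42 without each rat in turn, where its sign could not turn because the groups did not overlap. It was 2.88 with median centring of the arrays and 1.36 with quantile normalization.

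Lif, a gp130 ligand that contracting muscle can also produce, was not cleanly separated. AAM replicates 1 to 4 had 6.1615287, 6.1615293, 6.1615288 and 6.1615294, and WPH replicates 1 to 4 had 6.1615304, 6.1615318, 6.1615291 and 6.1615299. WPH replicate 2 was the highest rat, and WPH replicate 3 lay among the AAM rats. The standardized difference of 1.46 (95% interval -0.19 to 3.02) became -0.47 with median centring of the arrays. Osm, the gene of oncostatin M, a gp130 cytokine made mainly by leukocytes, had -0.05 (-1.44 to 1.34), with its highest rats in both meals. Il15, a cytokine that is abundant as transcript in muscle, had AAM values of 8.9904, 8.9899, 8.9887 and 8.9896 and WPH values of 8.9903, 8.9904, 8.9899 and 8.9896. The groups overlapped, and the 1 rat far below the others was AAM replicate 3. The standardized difference of Il15 was 0.65 (-0.80 to 2.06) and fell to 0.13 without that rat.

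The receptor chains did not differ between the meals beyond their spread. Il6r ranged from 8.56929 to 8.56940 after AAM and from 8.56934 to 8.56941 after WPH, with a standardized difference of 0.64 (-0.81 to 2.05). For Il6st, the 4 probe sets had -0.39, -0.26, -0.13 and 0.21, and the widest of their intervals ran from -1.78 to 1.02. Its brightest probe set read 9.8571, 9.8563, 9.8555 and 9.8565 after AAM and 9.8566, 9.8561, 9.8563 and 9.8558 after WPH. The highest and the lowest rat were thus both in the AAM group, replicates 1 and 3, and the WPH rats lay between them. Leaving out AAM replicate 1 gave that probe set 0.26, and leaving out AAM replicate 3 gave -1.08, so its sign rested on single rats.

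Stat3, the transcription factor that gp130 activates, overlapped between the meals. Its brighter probe set was highest in AAM replicate 3 and WPH replicate 4 (8.800536 and 8.800532), while the other 3 AAM rats lay between 8.800494 and 8.800495 and the other 3 WPH rats between 8.800497 and 8.800519. The standardized differences were 0.50 (-0.93 to 1.90) and 0.41 (-1.01 to 1.80) for the 2 probe sets. Without AAM replicate 3 the brighter one was 1.65. Both were negative, at -0.11, with median centring of the arrays.

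**Figure D2:**
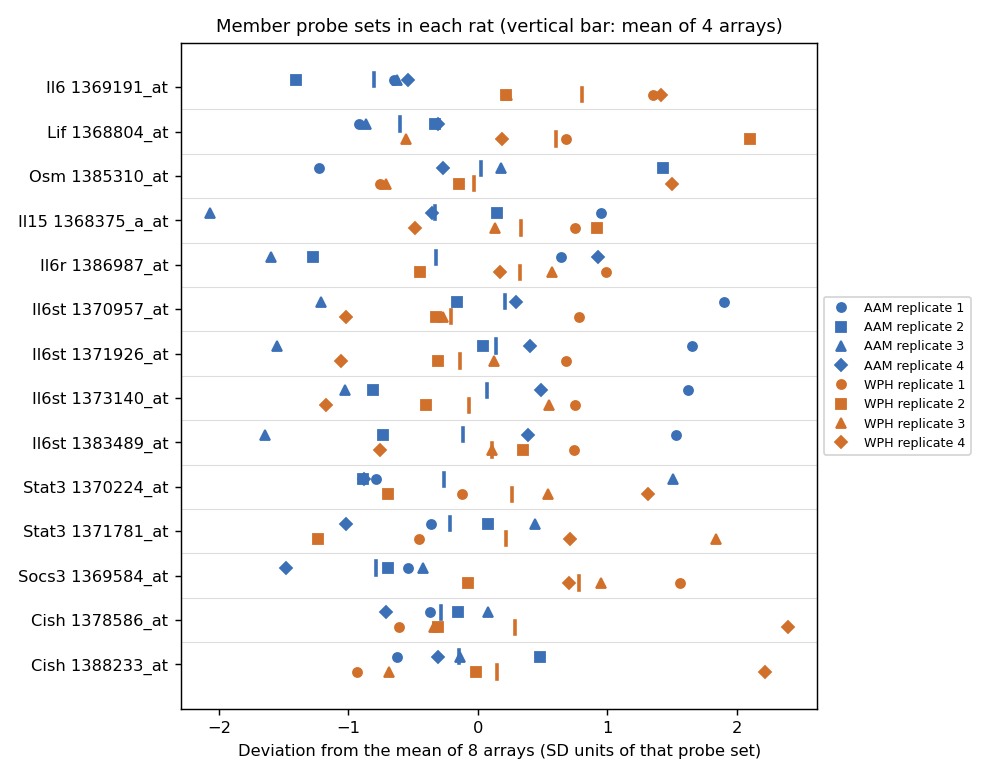
Each row is 1 member probe set; points are the 8 rats (blue AAM, orange WPH, marker shape by replicate), placed by their deviation from the mean of 8 arrays in SDs of that probe set, and short bars are meal means. The colours separate completely for Il6 and Socs3 only, AAM replicates 1 and 3 are the highest and lowest rats for 3 of the 4 Il6st probe sets, and WPH replicate 4 lies above 2 SD for both Cish probe sets.

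The feedback inhibitors gave 2 different pictures. Socs3, which encodes an inhibitor that binds gp130 itself, had 6.4840951, 6.4840948, 6.4840952 and 6.4840936 after AAM, and 6.4840983, 6.4840958, 6.4840973 and 6.4840970 after WPH. All 4 WPH rats lay above all 4 AAM rats, with WPH replicate 2 nearest to them. The mean difference was 2.40e-06 ± 6.33e-07 (SE, n = 4 per group), or 2.68 SD. It was 2.38 to 4.01 SD without each rat in turn, where the sign could not turn because the groups did not overlap. The mean difference of 2.40e-06 is smaller than the spread of the array medians, which covered 6.67e-05. The sign turned with median centring (-0.41) and with quantile normalization (-0.26). Il6 and Socs3 were the 2 of 14 member probe sets whose WPH rats all lay above the AAM rats, where 1.08% of all probe sets did so, and for no member did the WPH rats all lie below (1.15% of all). These counts come from the comparison that chose the members, and nothing is read from them.

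Markers of other cells are given beside these values. Of the macrophage markers 8 of 12 were higher after WPH, with list scores (mean z-score of the members) from -0.83 to 0.59 after AAM and from -0.78 to 0.76 after WPH. All 6 measured neutrophil markers lay below the array's median level, and 3 of them were higher after WPH. Scores of that list ran from -0.81 to 0.55 after AAM and from -0.70 to 0.70 after WPH. Lymphocyte markers were higher in 3 of 9 and mast cell markers in 4 of 6, and 5 of 7 skin and epithelium markers were lower after WPH, with scores of 0.10 to 0.37 after AAM and -0.48 to -0.04 after WPH. With meal means removed, the marker scores most unlike each other in their r with Il6 were skin and epithelium (0.77) and mast cell (-0.76). For Socs3 they were Schwann cell and nerve (0.46) and neutrophil (-0.88). These are the extremes among all marker lists over 8 arrays and are a description only. The part of any cell type in the Il6 and Socs3 values was not tested. In whole muscle, a change in the number of cells of a type and a change of RNA per cell cannot be told apart.

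Cish, the feedback inhibitor tied to STAT5, stood out in a single rat. Its brighter probe set had 6.795, 6.799, 6.803 and 6.790 after AAM and 6.791, 6.796, 6.796 and 6.843 after WPH. WPH replicate 4 lay far above the other 7 rats, which overlapped. The dimmer probe set was highest in the same rat, 6.28045 against 6.28027 to 6.28035 in the others. The standardized differences of 0.56 (-0.88 to 1.96) and 0.28 (-1.13 to 1.66) became -0.47 and -0.85 without it. The same array had the highest scores of the skeletal muscle fibre markers (0.93, against -0.65 to 0.24 in the other 7), of the fibroblast and matrix markers (1.55, against -1.03 to 0.57) and of the macrophage markers (0.76, against -0.83 to 0.59). With meal means removed, the brighter Cish probe set had r = 0.64, 0.81 and 0.58 with these scores, in that order, over arrays that include this one. The part of any of these cell types in the Cish value was not tested.

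**Figure D3:**
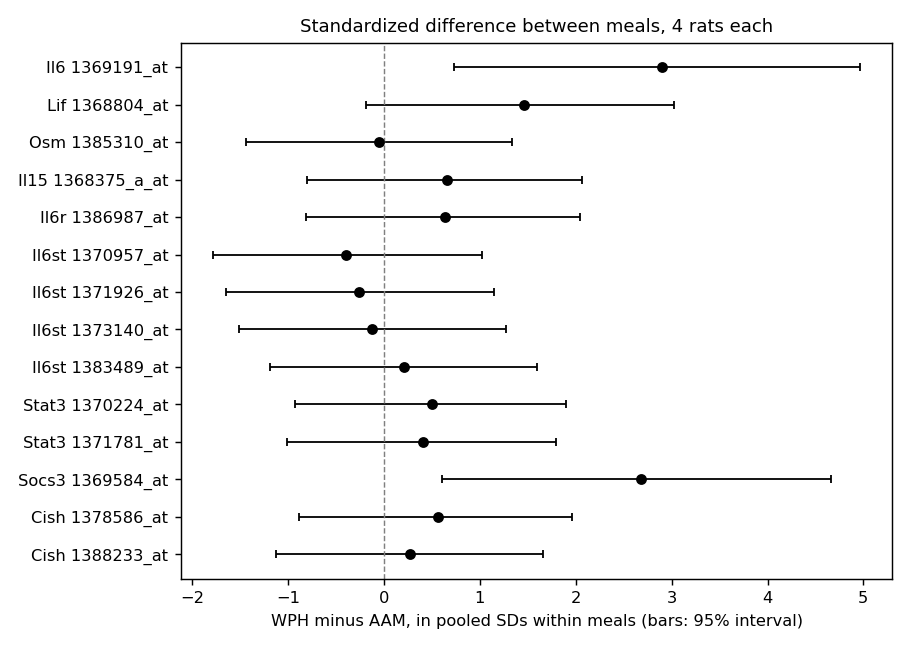
Points are the standardized differences of the 14 member probe sets (WPH minus AAM in pooled SDs within meals, 4 rats each) and bars their 95% intervals, which do not allow for the choice of these genes. Il6 at 2.90 and Socs3 at 2.68 lie furthest to the right, and the 4 Il6st probe sets lie between -0.39 and 0.21.

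Over all 14 probe sets, 10 had a positive and 4 a negative standardized difference with a median of 0.46, where 47.3% of all probe sets were positive and their median was -0.04. The count moved with the scaling of the arrays, to 6 positive with quantile normalization and 5 with median centring. Centring moves all values of an array alike, by medians that covered 6.67e-05, where the median SD of all probe sets was 3.69e-06. The centred count is therefore not read as a direction. The direction of the group as a whole is not settled by these values.

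The promoters of the members were searched for 4 binding motifs, and those of Il6 and Cish are shown. Windows of 250 bases before the annotated start were read from RefSeq (GRCr8) for 8 of the 10 genes. Only those of Il6 and Cish lay wholly outside the gene's annotated span and are printed, 5′ to 3′ on the gene's strand. Capitals mark matches to 4 motifs searched on both strands: TTCNNNGAA for STAT proteins, TGANTCA for AP-1, GGG and TCC set 4 bases apart for NF-kB and TGACGTCA for the cyclic AMP response element (CRE).
Cish, chr8:116850719-116850968, plus strand: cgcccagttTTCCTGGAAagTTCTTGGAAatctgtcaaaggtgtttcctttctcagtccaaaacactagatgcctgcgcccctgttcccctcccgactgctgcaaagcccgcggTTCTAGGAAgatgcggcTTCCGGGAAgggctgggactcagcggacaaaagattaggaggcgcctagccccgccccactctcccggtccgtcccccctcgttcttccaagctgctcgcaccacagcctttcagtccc
Il6, chr4:5894576-5894825, minus strand: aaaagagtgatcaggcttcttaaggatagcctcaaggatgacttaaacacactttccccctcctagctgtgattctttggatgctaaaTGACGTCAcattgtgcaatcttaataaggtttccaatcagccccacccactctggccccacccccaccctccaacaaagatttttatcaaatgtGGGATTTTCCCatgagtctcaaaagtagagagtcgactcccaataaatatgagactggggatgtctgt

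The Cish window holds 4 STAT matches, TTCCTGGAA, TTCTTGGAA, TTCTAGGAA and TTCCGGGAA, which begin 241, 230, 136 and 119 bases before the start. Of 27456 rat promoter windows of the same length, 7.56% hold at least 1 such match, 0.368% hold 2 or more and only 2 hold 4, Cish being 1 of them. The Il6 window holds a CRE match 162 bases before the start (1.68% of windows hold one). It also holds NF-kB matches on both strands, GGGATTTTCC and GGATTTTCCC, which overlap in a single stretch beginning 68 bases before the start (15.5% of windows hold such a match). No STAT match lies in the windows of the other 7 genes, which says only that these letters are absent from these bases. All of these windows but that of Il6 overlap the gene's annotated span, and those of Socs3 and Il6st lie inside it. They cannot show what lies upstream of the span, so they are not set against the Cish window. Among the windows not printed, that of Il15 held AP-1 and NF-kB matches and that of Osmr an AP-1 match. A match describes the sequence and does not show binding in these rats.

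Variation between rats within a meal does not depend on the difference between meals, and it was used to ask which members moved together. After each meal's mean had been removed, the 4 Il6st probe sets followed each other closely over the 8 rats, with Pearson r from 0.91 to 0.97 for their 6 pairs. The 2 Cish probe sets had r = 0.94 and the 2 Stat3 probe sets r = 0.64. Probe sets of the same gene thus followed each other across the rats for Il6st and Cish, although the brightest Il6st probe set ranged over only 0.00154. These values are given as a description over 8 arrays.

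Between genes, each represented by its brightest probe set, 36 pairs were tested by exact two-sided permutation of 1 gene within each meal (576 arrangements, smallest possible p 0.00174). None passed after Benjamini-Hochberg adjustment, and 3 had an unadjusted p below 0.05 by Pearson r and 5 by Spearman rho. Il15 and Stat3 ran in opposite directions, with Pearson r = -0.90 (exact permutation p = 0.0122, adjusted 0.304) and Spearman rho = -0.81 (exact p = 0.0347, adjusted 0.275). Without AAM replicates 1 and 3, the 2 rats farthest from the median of Il15, r was -0.94, and without AAM replicate 3 and WPH replicate 4 it was -0.44. It depended on the scaling, with -0.03 after quantile normalization and -0.18 after median centring, and on the probe set, with -0.48 for the more variable one of Stat3. Il15 and Il6st ran together, with r = 0.89 (exact p = 0.0278, adjusted 0.304) and rho = 0.62 (exact p = 0.161, adjusted 0.581), and r was 0.57 without the same 2 rats and 0.43 after quantile normalization. The other pair below 0.05 was Il6st with Cish, with r = -0.55 (exact p = 0.0347, adjusted 0.304) and rho = -0.60 (exact p = 0.0712, adjusted 0.422), and r was -0.88 without AAM replicates 1 and 3. The receptor partners Il6r and Il6st had r = 0.76 (exact p = 0.0573, adjusted 0.304) and rho = 0.83 (exact p = 0.0278, adjusted 0.275), and r = 0.83 without AAM replicates 3 and 4.

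The other pairs below 0.05 by rank involved the dim ligands. Osm and Il6st had rho = -0.86 (exact p = 0.0191, adjusted 0.275) and r = -0.66 (exact p = 0.0955, adjusted 0.389), with r = -0.92 without AAM replicate 2 and WPH replicate 4. Osm and Cish had rho = 0.71 (exact p = 0.026, adjusted 0.275) and r = 0.73 (exact p = 0.0573, adjusted 0.304), with r = 0.43 without the same 2 rats. Lif and Stat3 had rho = -0.76 (exact p = 0.0382, adjusted 0.275) and r = -0.56 (exact p = 0.118, adjusted 0.425), with r = -0.66 without WPH replicates 2 and 3.

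Within the feedback loop itself no relation passed. Il6 and Socs3 had r = 0.33 (exact p = 0.53, adjusted 0.794) and rho = 0.24 (exact p = 0.635, adjusted 0.953). Without AAM replicate 2 and WPH replicate 2, r was 0.05. Stat3 and Socs3 had r = 0.375 (exact p = 0.347, adjusted 0.735) and rho = 0.57 (exact p = 0.184, adjusted 0.602), with r = 0.52 without AAM replicate 3 and WPH replicate 4.

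Il15, Il6st and Stat3 also followed the main axis of variation of the whole array. The first principal component of the within-meal values held 28.4% of the variance and set AAM replicate 3 (0.67) and WPH replicate 4 (0.42) against AAM replicate 1 (-0.44). The within-meal r with it was -0.93 for Il15, -0.94 for the brightest probe set of Il6st and 0.91 for that of Stat3, but 0.10 for Il6 and 0.12 for Socs3. The part of this component in the pairs above was not tested.

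**Figure D4:**
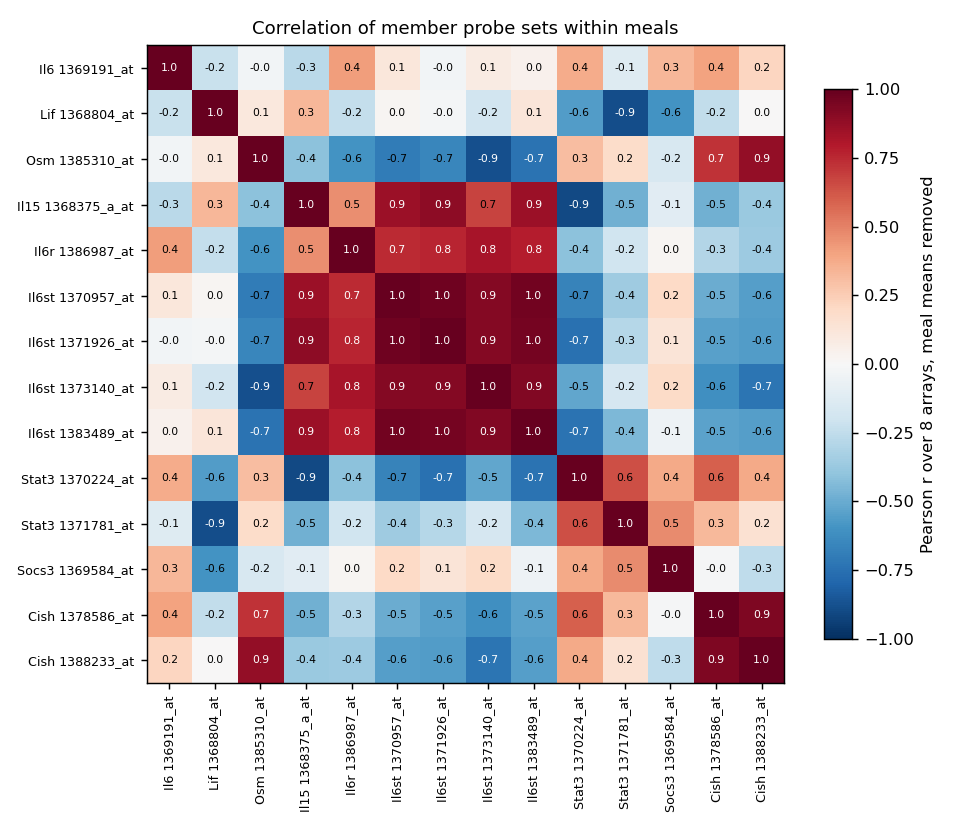
The grid gives Pearson r between each pair of the 14 member probe sets over 8 arrays after each meal's mean was removed, from blue (-1) to red (1). The block of 4 Il6st probe sets has r of 0.91 to 0.97, Il15 joins it (0.89 with the brightest), and Stat3 runs against Il15 (-0.90).

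The genes whose within-meal pattern was most like that of Il6, by Pearson r over the 8 arrays among 14216 genes, were Sumo2 (0.954), Nutf2 (0.952), Ackr2 (0.946), Ccdc141 (0.945) and Zfp41 (0.944). For Socs3 they were Fads2 (0.974), Slc52a3 (0.965), Neurl1b (0.958), Lpin3 (0.954) and Haus1 (0.952). No pathway gene listed here was among them. With so many genes and 8 arrays, values of this size are a description only.

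The rest of the pathway was read from 8 lists chosen by role, with earlier results of these data known. Of their 85 genes 76 were measured. By limma 0 of the 76 passed in either direction. Of them 45 were higher and 31 lower after WPH, with a median of 0.20 (all genes -0.06), but with median centring 16 were higher and 60 lower. Centring moves all values of an array alike, by medians that covered 6.67e-05, where the median SD of all probe sets was 3.69e-06. The share of all genes higher under that centring was not taken. The centred counts here and in the lists below are therefore not read as a direction of the pathway. The 4 WPH rats lay wholly above the AAM rats for 4 of the 76 genes, where 1.08% of all probe sets did so. They lay wholly below for 1 of the 76, where 1.15% of all probe sets did so. As the lists were chosen with earlier results known, nothing is read from these counts.

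Other ligands and receptors of the gp130 family were divided, 2 of 5 ligands and 2 of 4 receptors being higher after WPH. Ctf1, the gene of cardiotrophin-1, had -1.09, Clcf1 -0.29, the LIF receptor gene Lifr 0.29, the IL-11 receptor gene Il11ra1 -0.48 and the CNTF receptor gene Cntfr -1.01. Lifr and Cntfr each had 1 of 2 probe sets higher after WPH. Ebi3, a subunit of IL-27 named here after its value was seen, had 2.31 with groups that did not overlap, but -0.13 with median centring. Of the Janus kinases and other STAT genes 6 of 9 were higher, with Jak1 at -0.47, Jak2 at 0.54, Tyk2 at -0.63, Stat5a at 0.79 and Stat5b at 0.47. With quantile normalization 3 of the 9 were higher and with median centring 0 of 9. Stat5a then had -0.27 and -0.23, and Tyk2 had 1.04 and -0.54. Jak1, the kinase most tied to gp130, had a level at the 97.1st percentile of the array. Of the other feedback and adaptor genes 9 of 16 were higher. Socs1 had 0.95, Socs2 0.36 and Ptpn11, the phosphatase SHP2 that docks on gp130, -0.33. Only 1 of the 2 Socs1 probe sets was higher after WPH. Pias3, an inhibitor of STAT3, had -1.57 with all WPH rats below the AAM rats, but -0.01 with quantile normalization and -0.73 with median centring.

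Of 21 STAT3 target genes 14 were higher after WPH, with a median of 0.20, and 8 of 21 with median centring. Bcl3, a modulator of NF-kB, had 3.26, and kept 3.12 with quantile normalization and 2.02 with median centring. Junb, a transcription factor of the AP-1 family, had 2.25, with 0.95 and 2.18 under those scalings, and in both genes the WPH rats lay wholly above the AAM rats. Pim1, a kinase gene, had 1.49 and -0.31 with median centring. Values of 0.38 for Myc, 0.21 for Mcl1, 0.24 for Cebpb and 0.12 for Cebpd had intervals that included 0. For Mcl1 1 of 2 probe sets was higher after WPH, and for Cebpd 2 of 3. Of 4 hormone receptor and growth factor genes listed beside Cish 2 were higher, the growth hormone receptor gene Ghr with 0.75 while Igf1 had -0.21. Of 7 genes of the IL-15 and common gamma chain group 4 were higher, with the shared IL-15 receptor chains Il2rb at 0.82 and Il2rg at 0.23.

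Of 10 regulators of Il6 mRNA and of NF-kB 6 were higher after WPH. The lowest of them was the NF-kB subunit gene Rela, at -2.23 with overlapping groups, named after its value was seen. It had -1.36 with quantile normalization and -0.55 with median centring. Zc3h12a, whose product cleaves Il6 mRNA, had 4.23 with groups that did not overlap, and 3.80 to 5.78 without each rat in turn. Like Socs3 it depended on the scaling, with 0.97 after quantile normalization and 0.06 after median centring. Nfkbiz, a nuclear cofactor needed for Il6 transcription in macrophages, had 1.16 and kept 1.33 and 1.14 under those scalings. Its groups overlapped, and its 95% interval of -0.41 to 2.64 included 0. Nfkbia of the same list, named after its value was seen, had -0.68, with -0.73 and -0.69 under the same scalings. Zfp36, which encodes an mRNA-destabilizing protein, had 0.62.

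**Figure D5:**
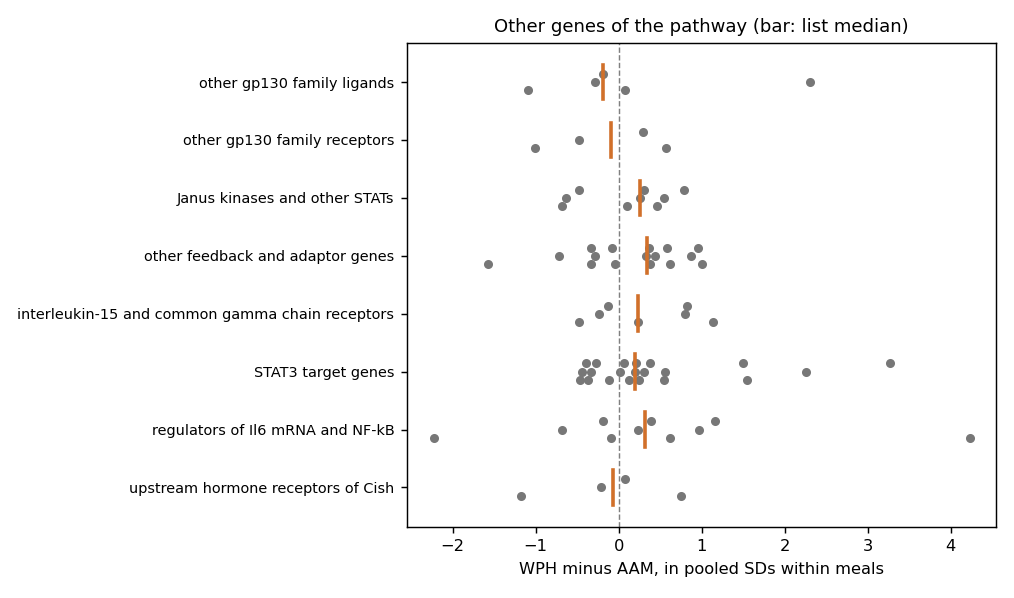
Points are the standardized differences (WPH minus AAM in pooled SDs within meals) of the 76 measured genes of 8 pathway lists, with list medians as orange bars. Medians lie between -0.19 and 0.34, and the points furthest to the right are Zc3h12a (4.23), Bcl3 (3.26), Ebi3 (2.31) and Junb (2.25).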

How the data were processed

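The authors deposited 1 summary value per probe set and array on a log2-like scale. The submitters' processing notes name R 2.7.2. How background, scaling and summary were handled, and the log base, are not stated in the labels. Whether the scale is a true log2 scale therefore stays unknown. Groups and replicate numbers come from the sample titles, and each sample is labelled a biological replicate. Of 31099 probe sets 57 controls were left out. Symbols came from the platform annotation, and probe sets with several symbols (436) or none (9780) were not named.

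WPH was compared with AAM over all probe sets by limma 3.58.1 in R 4.3.3 (lmFit, eBayes, threshold 0.05 after Benjamini-Hochberg adjustment), and checked on simulated arrays. Each standardized difference has a 95% noncentral t interval (6 degrees of freedom). Pathway and marker genes are represented by their brightest probe set. Correlations, promoter searches and figures used Python 3.11.15, numpy 2.4.6 and matplotlib 3.10.9. The number of arrays limits the precision.

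The members, lists, tests and named genes were chosen with earlier results of these data known. Named were all members, pathway genes listed by role where reported here and the 5 genes nearest to Il6 and to Socs3. Alternatives were a replicate block, median centring of the arrays, quantile normalization, probe sets above the median level only, leaving out each array, leaving out AAM replicate 3 with WPH replicate 4, a trended robust prior, array weights, a threshold of 0.1 and, for the pairs, the most variable probe set of a gene. Pairs numbered 36 and not the 45 planned, since Osmr was not measured.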

Additional observations from a re-analysis of the deposited data

Results flagged for a closer look

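In 3 of 28 groups of 4 arrays, 1 rat stood further from the other 3 than Dixon's 95% critical value allows, where chance gives about 1 in 20 groups. The gap of AAM replicate 2 below the others was 0.869 of the group's range for Il6. AAM replicate 3 lay above the others for the brighter Stat3 probe set, with 0.96. WPH replicate 4 lay above the others for the brighter Cish probe set, with 0.90.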

How the results depend on the processing

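No probe set was called by limma in the comparison of the meals under any alternative but quantile normalization, which called 5, none of them a member. Of the 14 member probe sets 10 had a positive difference. This count became 6 with quantile normalization and 5 with median centring, and ranged from 9 to 13 without each array. Of the 14 standardized differences 6 kept their sign in all 8 fits without an array. Il6 and Socs3 are among these 6, and their sign could not turn in such fits, since their groups did not overlap. With the replicate number as a block, 0 probe sets were called and 10 members were positive. With that block the standardized difference was 4.26 for Il6 and 3.04 for Socs3. Same-numbered arrays of the 2 meals correlated from -0.07 to 0.16 and other-numbered ones from -0.25 to 0.28, so the numbers were not taken as pairs. No gene pair passed under any of its alternatives. The correlation of Il6 with Socs3 turned to -0.030 with quantile normalization and ranged from -0.019 (without WPH replicate 2) to 0.571 (without AAM replicate 4) when each array was left out. After quantile normalization 2710 probe sets had no spread within meals, 1 of Il6st among them, and gave no value. Array medians covered 6.67e-05, more than the range of Socs3 or Lif over the 8 arrays (4.65e-06 and 3.09e-06), and both changed sign with median centring.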
